A study of Mus musculus with 6 samples.

Results

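Genomic imprinting keeps a gene active on the copy from one parent and silent on the other, and the choice is held by control regions that carry DNA methylation on a single parental copy. Several imprinted genes act on growth, among them the growth factor Igf2, its clearance receptor Igf2r and the non-coding RNAs H19 and Meg3, and a network of such genes is known in mouse blood stem cells, where loss of the maternal H19 control region is known to disturb quiescence. The loci of 10 imprinted genes (H19, Igf2, Dlk1, Meg3, Grb10, Peg3, Mest, Gnas, Plagl1 and Igf2r) were examined in ATAC-seq peak lists, in which a peak marks DNA that a transposase could enter. A locus was the mm10 gene body with 25 kb on each side, and its members were chosen by position: every peak of any list that overlapped the locus, with peaks of different lists merged where they shared at least 1 bp. This gave 423 merged regions of 882758 in the whole series, between 17 at Mest and 69 at each of Grb10 and Igf2r, and no region belonged to 2 of the loci.

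The samples were 3 aged and 3 young preparations of long-term haematopoietic stem cells from C57BL/6 mice, sorted from bone marrow as lineage-negative, Kit-positive and Sca1-positive cells without Flk2 or Cd34, and all were kept overnight at 3% oxygen in a salt solution with serum before the assay. Ages, sex and pooling of animals were not given in the labels, so p-values here cover the spread among the lists, which may be technical. Counted as distinct intervals, there were 244692, 129137 and 129949 peaks in aged replicates 1, 2 and 3, against 263956, 254869 and 110596 in the young ones, from an unknown number of reads. Each list comes from many cells, so that fewer cells with an open region and a less open region in each cell cannot be told apart, and the 2 parental copies are not separated. Among regions present in every one of the other 5 lists, young replicate 2 called 62.3% and aged replicate 3 called 75.6%, against at least 97.4% in each remaining list. Among 10 stem-cell markers, 7 had a gene end called in all 6 lists (Kit, Procr, Fgd5, Meis1, Mecom, Hlf and Tal1), while Slamf1 was called in 0 aged lists and 1 young list. Markers of other cells were called too. Of 4 myeloid genes, Mpo was called in all 6 lists, Itgam in 5, Csf1r in 4 and Elane in 1. None of the 3 B cell, 3 T cell, 3 erythroid or 3 stromal markers was called in all 6, although each of these 12 was called in 2 to 5 lists. Flt3 and Cd34, whose proteins the sort selects against, had an end called in 4 and 5 lists. The part of other cells in the results was not tested.

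Because the calls at the annotated starts turned out to differ between the genes, the sequences of 5 are shown, each as the 250 bases before the start on the coding strand, 5′ to 3′, with CG dinucleotides in capitals (RefSeq, GRCm38.p6, the assembly that mm10 names). The first 3 were called in 5 or 6 lists, the Igf2r start in 3 and the Meg3 start in none.
Gnas, chr2:174329756-174330005, plus strand: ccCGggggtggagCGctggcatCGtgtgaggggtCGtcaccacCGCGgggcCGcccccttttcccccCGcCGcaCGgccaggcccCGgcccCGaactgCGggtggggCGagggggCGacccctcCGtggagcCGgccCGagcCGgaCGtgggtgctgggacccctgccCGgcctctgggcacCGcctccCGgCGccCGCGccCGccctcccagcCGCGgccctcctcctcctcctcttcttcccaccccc
Plagl1, chr10:13090582-13090831, plus strand: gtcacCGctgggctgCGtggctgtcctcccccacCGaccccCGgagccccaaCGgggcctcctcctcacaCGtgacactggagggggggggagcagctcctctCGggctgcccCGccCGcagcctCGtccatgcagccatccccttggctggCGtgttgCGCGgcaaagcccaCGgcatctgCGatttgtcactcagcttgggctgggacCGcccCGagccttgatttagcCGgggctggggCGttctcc
Igf2, chr7:142658805-142659054, minus strand: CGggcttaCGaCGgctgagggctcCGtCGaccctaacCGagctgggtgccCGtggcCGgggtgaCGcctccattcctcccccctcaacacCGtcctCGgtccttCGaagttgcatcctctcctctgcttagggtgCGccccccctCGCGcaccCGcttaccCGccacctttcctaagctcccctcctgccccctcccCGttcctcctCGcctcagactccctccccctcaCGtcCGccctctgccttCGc
Igf2r, chr17:12769707-12769956, minus strand: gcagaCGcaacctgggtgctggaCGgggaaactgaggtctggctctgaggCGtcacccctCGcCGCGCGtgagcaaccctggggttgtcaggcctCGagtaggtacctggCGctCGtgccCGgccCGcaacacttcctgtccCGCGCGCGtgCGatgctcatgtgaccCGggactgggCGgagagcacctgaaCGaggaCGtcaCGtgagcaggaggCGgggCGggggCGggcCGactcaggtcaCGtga
Meg3, chr12:109540746-109540995, plus strand: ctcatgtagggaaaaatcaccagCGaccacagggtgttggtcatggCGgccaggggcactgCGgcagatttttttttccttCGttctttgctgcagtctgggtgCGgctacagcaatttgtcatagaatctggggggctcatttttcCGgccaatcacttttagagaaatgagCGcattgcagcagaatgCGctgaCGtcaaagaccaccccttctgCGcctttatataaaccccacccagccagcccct
The stretches hold 29 CG dinucleotides at Gnas, 19 at Plagl1, 22 at Igf2, 27 at Igf2r and 10 at Meg3. DNA methylation sits mostly on such sites, and it was not analysed here.

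Across all 10 loci, aged and young lists called about as many regions, and the difference was smaller than the spread within each age. The aged lists called 112, 79 and 82 of the 423 regions and the young lists 124, 109 and 73. The mean was 91 ± 18.2 regions for the aged and 102 ± 26.2 for the young lists (SD, n = 3 each; exact 2-sided permutation p 0.7, adjusted p 1 over 4 tests). With 3 lists of each age the smallest p that this test can give is 0.1. Since lists differ in length, the peaks at the loci were also taken as a share of all peaks of the list: 0.0466%, 0.0619% and 0.0654% in the aged lists, against 0.0477%, 0.0432% and 0.0687% in the young (exact permutation p 0.8). Both measures overlapped between the ages, and which age was higher changed with the list left out. The number that follows "exp" in the titles, which the labels do not explain, is the same for equally numbered aged and young lists. Within these pairs the differences, aged minus young, were -12, -30 and 9 regions. A further number in the titles, also unexplained, is equal between the ages for replicates 2 and 3 and differs for replicate 1.

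**Figure D1:**
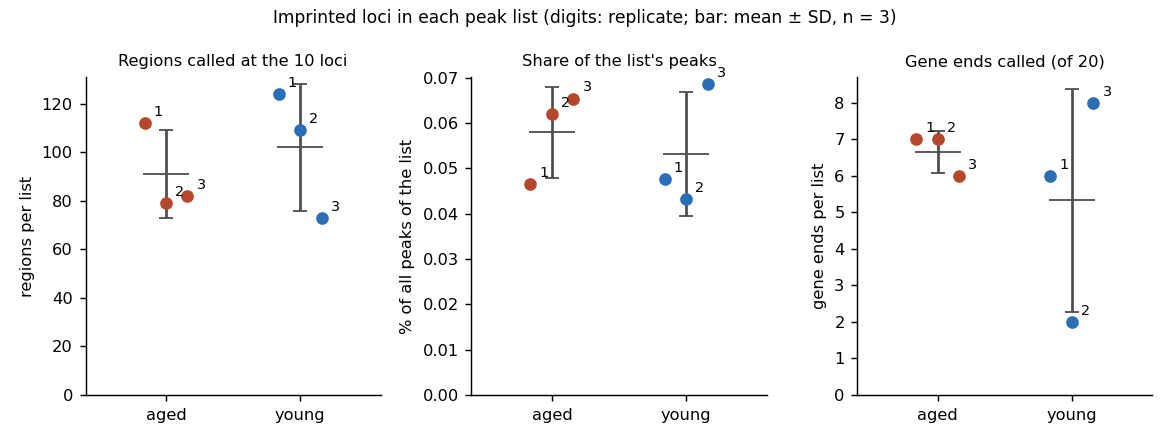
Each point is 1 peak list, aged on the left and young on the right, with its replicate number. The panels give the regions called at the 10 loci, the share of the list's peaks that lie there in percent, and the number of the 20 annotated gene ends called, with horizontal marks for the mean and bars for the SD (n = 3). The ages overlap in all 3 panels, and young replicate 2 has the fewest gene ends, 2 of 20.

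Most of the 423 regions were seen once. A single list called 341 of them (80.6%, against 85.2% of all merged regions of the series), and 22 (5.2%, against 3.49%) were called in at least 4 lists. Only 2 regions, 1 at Gnas and 1 at Igf2r, were called in all 6 lists, where 1.09% of all merged regions were. Without young replicate 2, 13 regions were called in all 5 remaining lists, where 1.74% of all merged regions were. The 22 shared regions lay at 8 of the 10 loci, with none at Meg3 or Mest, and 70.2% of all protein-coding and lncRNA genes have such a region in a window of this kind. Of the 22, 15 lay in the body of the gene and 8 had their centre within 1 kb of one of its annotated starts. Aged lists called 20, 22 and 14 of the 22 and young lists 20, 8 and 22. The shared regions were wider, at a median of 549.5 bp, than those called once, at 192 bp, and in the whole series the same medians were 608 and 186 bp. A merged region spans all of its peaks, so one made from peaks of several lists tends to be wider by the way it is built.

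Strength was read as the percentile of a peak's -log10 p within its own list, with ties averaged. A percentile of 100 is the strongest peak of the list. The -log10 p and the fold enrichment are the authors' own values. The same percentile can stand for a different -log10 p in another list, so percentiles give rank within a list alone. In the 2 regions called everywhere, the median percentile averaged 91.8 ± 8.19 for aged and 91.4 ± 4.17 for young (SD, n = 3 each; exact permutation p 1).

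Igf2 (chr7:142650768-142666816) and Dlk1 (chr12:109452485-109463336) encode the secreted and membrane-bound signals of the group: insulin-like growth factor 2, and a delta-like protein that restrains differentiation in several tissues. Of the 4 annotated starts of Igf2, 1 was called in 5 of the 6 lists, by a region at chr7:142658683-142659592 inside the gene. Its percentiles were 24.2 and 58.7 in aged replicates 1 and 2, with no call in aged replicate 3, and 65.0, 22.3 and 75.9 in the young lists. These are middling ranks, and the ages overlap. The start furthest upstream was called in young replicate 3 alone, at a percentile of 3.75, the next in 1 list of each age, and the one nearest the 3′ end of the gene in none. The strongest region of the Igf2 locus lay outside the gene, 5.46 kb upstream of that first start (chr7:142672089-142672472), with percentiles of 79.5 and 53.1 in aged replicates 1 and 2 and 94.8 and 44.0 in young replicates 1 and 3.

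At Dlk1 the best-ranked regions lay upstream of the gene. The strongest region of the locus lay 11.3 kb before the start (chr12:109441265-109441782). It ranked at 97.1, 92.4 and 94.5 in the aged lists and at 93.2 and 90.8 in young replicates 1 and 3, and was not called in young replicate 2. A second region, 14.9 kb before the start (chr12:109437630-109438135), was called in the same lists, at 59.3, 80.0 and 91.2 in the aged lists, against 94.8 and 82.4 in the young. At the start itself the calls were sparser and lower: 60.0 and 72.0 in aged replicates 1 and 2, and 8.54 and 14.4 in young replicates 2 and 3. In number of regions within the 25 kb windows, Dlk1 was the locus where the ages did not overlap, with 7, 4 and 7 regions called in aged lists, against 11, 10 and 8 in young ones. The exact permutation p was 0.1, the smallest possible, and 0.9 after adjustment over the 10 loci. Of all windows of protein-coding and lncRNA genes built in this way, 1.84% had fewer regions in every aged than in every young list, and 0.37% had more. The counts overlapped at each of the other 9 loci, for example at Igf2, with 9, 2 and 8 regions in the aged lists, against 8, 10 and 10 in the young, and at Plagl1, with 11, 6 and 7 in the aged lists, against 9, 11 and 1 in the young. Of the 32 regions at Dlk1, 25 were called in 1 list, where 80.6% of the regions at all 10 loci and 85.2% of all merged regions were. The mean difference at Dlk1, aged minus young, was -3.67 regions, but -0.333 once peaks under a -log10 q of 1.3 were left out and 0 among the 100000 strongest peaks of each list. It was -3.67 with 10 kb windows (exact permutation p 0.1), -2 with the gene body alone (p 0.3) and -4.33 with 50 kb windows (p 0.2). With 50 kb windows Mest reached the smallest p, 0.1, in the other direction, at 2.67 regions.

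Igf2r (chr17:12682406-12769706) and Grb10 (chr11:11930499-12037428) restrain growth signals. Igf2r encodes a receptor that takes up and degrades Igf2, and Grb10 an adaptor that dampens insulin and insulin-like growth factor receptors. The strongest region at Igf2r, 14.8 kb inside the gene (chr17:12754281-12755436), was called in all 6 lists, at 97.1, 93.0 and 67.8 in the aged lists, against 92.7, 88.8 and 82.4 in the young. Its fold enrichment was 7.94, 12.3 and 3.68 in the aged lists, against 4.59, 2.88 and 6.97 in the young. A further region inside the gene, 23.8 kb from the start (chr17:12745708-12746182), was called in every list but young replicate 2, at 94.6, 90.0 and 95.8 in the aged lists, against 94.7 and 80.3 in the young. So were 3 regions outside the gene. The one 13.6 kb before the start (chr17:12782979-12783562) ranked at 12.9, 38.4 and 51.4 in the aged lists and at 97.0 and 37.6 in young replicates 1 and 3. The one 22.0 kb before it (chr17:12791458-12791899) ranked at 97.1, 88.5 and 96.7 in the aged lists and at 93.8 and 86.2 in these young lists. The last, 24.4 kb before the start (chr17:12793872-12794428), ranked at 97.8, 83.8 and 61.4 in the aged lists and at 94.1 and 89.8 in the same young lists. Ranks of the ages interleaved at each of the 3. These 5 regions also lie in the body of Airn, the non-coding RNA that is transcribed against Igf2r and is known to silence it on the paternal copy. The Igf2r start was called less: at 84.9 and 7.66 in aged replicates 1 and 2, and at 32.2 in young replicate 3. The start of Airn, where the control region of this locus is known to lie, was called in the same 3 lists, at 79.6 and 44.1 in aged and 70.2 in young lists.

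At Grb10 the start furthest upstream, which lies in the most CG-rich stretch of the group, was called in all aged lists, at 91.8, 88.3 and 88.2, and in young replicates 1 and 3, at 79.6 and 85.8. In young replicate 1 that percentile belongs to a region beside the one over the start (chr11:12037118-12037763), which itself ranked at 40.5 there. The second annotated start was called in aged replicate 3 alone, at 75.8. Deep in the gene, 3 regions were called in at least 4 lists and all 3 were missing in aged replicate 3. The strongest of them, 88.2 kb past the nearest start (chr11:11939606-11939984), ranked at 96.8 and 85.7 in aged replicates 1 and 2 and at 95.2, 61.5 and 74.8 in the young lists. The other 2 (chr11:11948317-11948858 and chr11:11973395-11973739) were called in aged replicates 1 and 2, at 71.6 and 81.6 for the first and 94.5 and 86.8 for the second. In young replicates 1 and 3 they ranked at 49.3 and 85.2 for the first and 96.7 and 89.6 for the second.

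**Figure D2:**
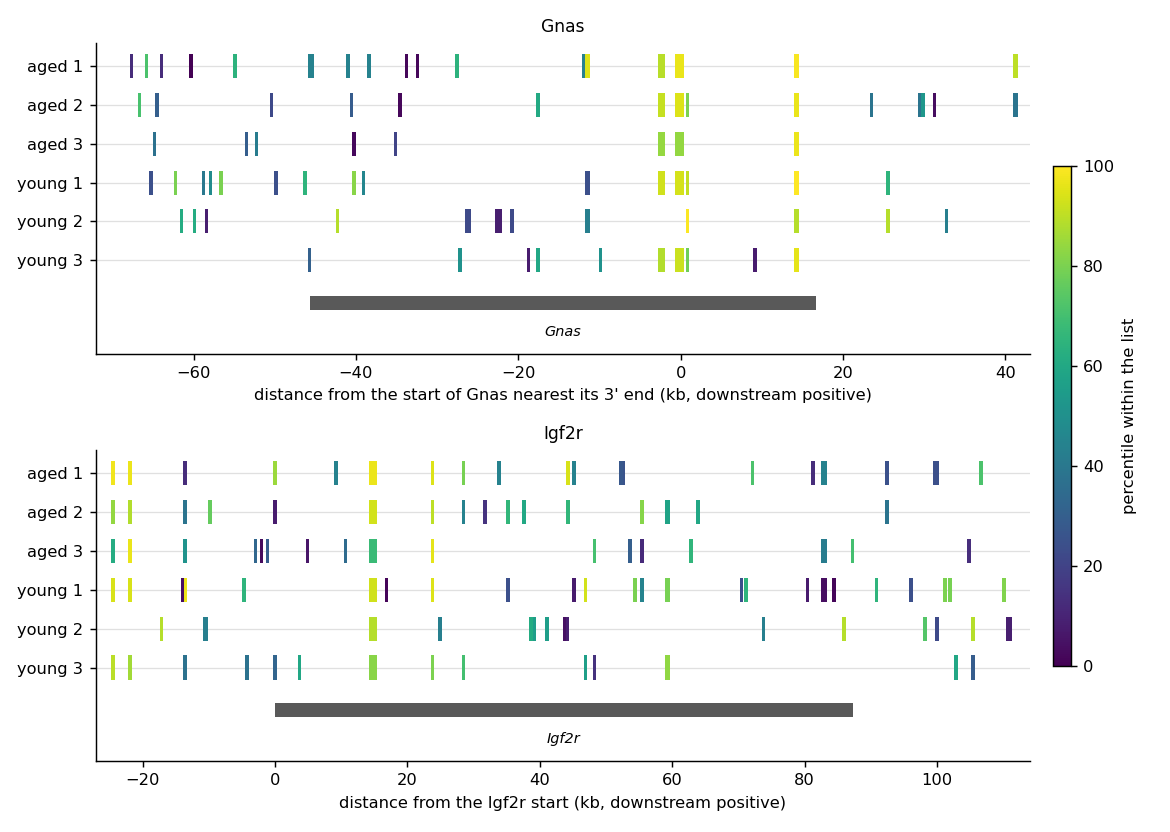
Calls along the Gnas locus (top) and the Igf2r locus (bottom), each list in its own row with aged lists above young lists. The x axis is the distance in kb from an annotated start, bars are called regions (widened to be visible) coloured by percentile within the list, and the grey bar is the gene. The column of bright bars 14.3 kb into Gnas and the one 14.8 kb into Igf2r run through all 6 rows.

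H19 (chr7:142575530-142578146) and Meg3 (chr12:109540996-109571729) are maternally expressed non-coding RNA genes, each lying beside a paternally expressed protein gene, Igf2 and Dlk1. Their starts were seldom called. The H19 start (the end of the gene that faces Igf2) was called in aged replicate 3 alone, at a percentile of 35.1, and neither of the 2 Meg3 starts was called in any list, where 21.2% of all annotated starts were called in none. The strongest region at H19 lay beyond the 3′ end of the gene (chr7:142571932-142572187), at 38.4 in aged replicate 2 and 49.3, 73.1 and 7.78 in the young lists.

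The control region of H19 and Igf2 is known to lie a short way upstream of H19, where the protein CTCF binds the unmethylated maternal copy. Within 5 kb of the H19 start on that side, 3 regions were called, each in 1 or 2 lists. They lay 2.21, 2.59 and 3.68 kb from the start (chr7:142580279-142580437, chr7:142580567-142580898 and chr7:142581699-142581952). Young replicate 3 called all 3, at 61.9, 27.9 and 61.7. Aged replicate 2 called the second at 31.3 and aged replicate 1 the third at 28.3. Calls near the control region had low to middling ranks and came from lists of both ages. In the whole interval of 72.6 kb between the genes, 47 regions were called, 35 of them in 1 list and none in more than 3. Of all merged regions of the series, 85.2% were called in 1 list and 3.49% in at least 4. The single region in 3 lists, 62.4 kb from the H19 start (chr7:142640298-142640824), ranked at 44.1 in aged replicate 1 and 22.3 and 1.69 in young replicates 2 and 3.

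Between Dlk1 and Meg3, the interval of 77.7 kb held 37 regions, 28 of them in 1 list, where 85.2% of all merged regions were. It held the only region at the 10 loci that was called in all 3 lists of an age and in none of the other. This region lay 15.1 kb upstream of Meg3 (chr12:109525742-109525970), on the side where the intergenic control region of the locus is known to be, and within the lncRNA gene Gm34081, with an annotated start of it within 1 kb. It ranked at 59.7, 72.0 and 51.4 in the aged lists, with fold enrichments of 3.06, 3.99 and 3.27, and had no call in the young lists. Across the genome, 0.0502% of merged regions had this pattern, and 0.0608% the reverse one, which none of the 423 had. At a -log10 q of at least 1.3 the Meg3 region no longer met the rule, and whether weaker signal lies there in the young lists cannot be read from peak lists. The most shared region of the interval, 28.5 kb upstream of Meg3 and outside the 25 kb window (chr12:109512068-109512871), was called in both ages, at 64.5 and 75.9 in aged replicates 1 and 2 and 79.8 and 78.2 in young replicates 1 and 3. The other 2 regions called in 3 lists, 32.0 and 46.0 kb upstream, were each called in 2 aged lists and 1 young list.

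**Figure D3:**
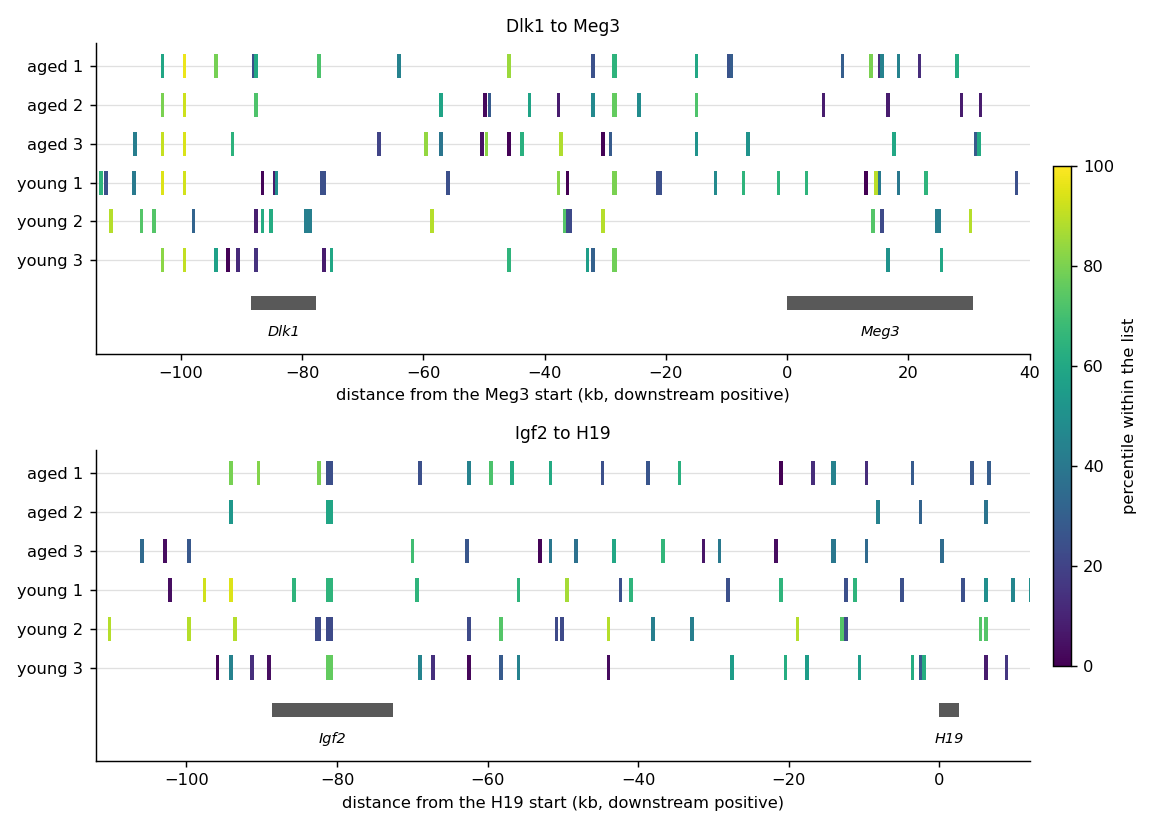
Calls from Dlk1 to Meg3 (top) and from Igf2 to H19 (bottom), with aged lists above young lists and the distance in kb from the Meg3 or H19 start on the x axis. Bars are called regions (widened to be visible) coloured by percentile, and grey bars are the genes. At 15.1 kb before Meg3 a bar stands in each aged row and in no young row. Most regions in the interval before H19 stand in a single row, as most merged regions of the series do.

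Plagl1 (chr10:13090832-13131694) and Peg3 (chr7:6703892-6730462) encode zinc-finger transcription factors that are expressed from the paternal copy, and Plagl1 is known to regulate other imprinted genes. Both were accessible at or just inside the start in the same 5 lists. The Plagl1 region covered the start (chr10:13090289-13091176), with percentiles of 80.5, 87.3 and 91.9 in aged lists and 65.0 and 89.0 in young replicates 1 and 3. Its fold enrichment was 3.71, 8.2 and 4.81 in aged and 2.97 and 11.7 in these young lists. The gene Hymai also overlaps this region and starts within 1 kb of it, so the region cannot be given to Plagl1 alone. The Peg3 region lay 0.843 kb inside the gene (chr7:6729238-6729915), at 89.4, 82.1 and 65.1 in aged and 96.3 and 89.1 in young replicates 1 and 3. A neighbouring region 2.06 kb inside Peg3 (chr7:6727696-6729022) was the only one of this pair with a call in young replicate 2, at 97.6. It was also called at 87.2, 80.0 and 6.63 in the aged lists and at 55.5 in young replicate 3. The -log10 p behind the 97.6 in young replicate 2 was 5.59, and that behind the 80.0 in aged replicate 2 was 10.1. The fold enrichments were 3.67 and 4.30. At both genes the control region is known to overlap the start.

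Mest (chr6:30733506-30748466), which encodes a hydrolase-like protein, had the fewest regions, 17, and none in more than 3 lists. Its first start was called in no list, and its second in aged replicates 2 and 3 alone, at 12.4 and 51.4. The strongest region lay 20.8 kb upstream (chr6:30712485-30712866), at 44.1 and 68.3 in aged replicates 1 and 2 and 59.6 in young replicate 3.

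Gnas (chr2:174284320-174346744) encodes the stimulatory G protein alpha subunit, which is known to be needed for stem cells to settle in marrow, and several other transcripts from alternative starts. It held the strongest region of all 10 loci, 14.3 kb past the start nearest the 3′ end (chr2:174343979-174344588), at percentiles of 99.0, 96.8 and 97.3 in the aged lists, against 99.7, 88.8 and 95.9 in the young. The fold enrichment there was 11.1, 15.7 and 7.04 in the aged lists, against 14.6, 2.88 and 18.8 in the young. The values of the ages interleave. Of the 3 annotated starts analysed, the one furthest upstream was called in aged replicate 1 (44.1) and young replicates 1 and 3 (65.0 and 30.6). The middle start (chr2:174327243-174328041) was called in 5 lists, at 89.1, 91.1 and 84.3 in aged and 92.7 and 88.6 in young replicates 1 and 3. The start nearest the 3′ end was the only member start called in all 6 lists, where 25.3% of all starts were. A region over it (chr2:174329277-174330456) ranked at 96.8, 94.7 and 83.7 in aged and 93.5 and 92.0 in young replicates 1 and 3. The call of young replicate 2, at 99.2, came from the next region downstream (chr2:174330654-174331097), which aged replicate 2 and the other young lists also called.

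**Figure D4:**
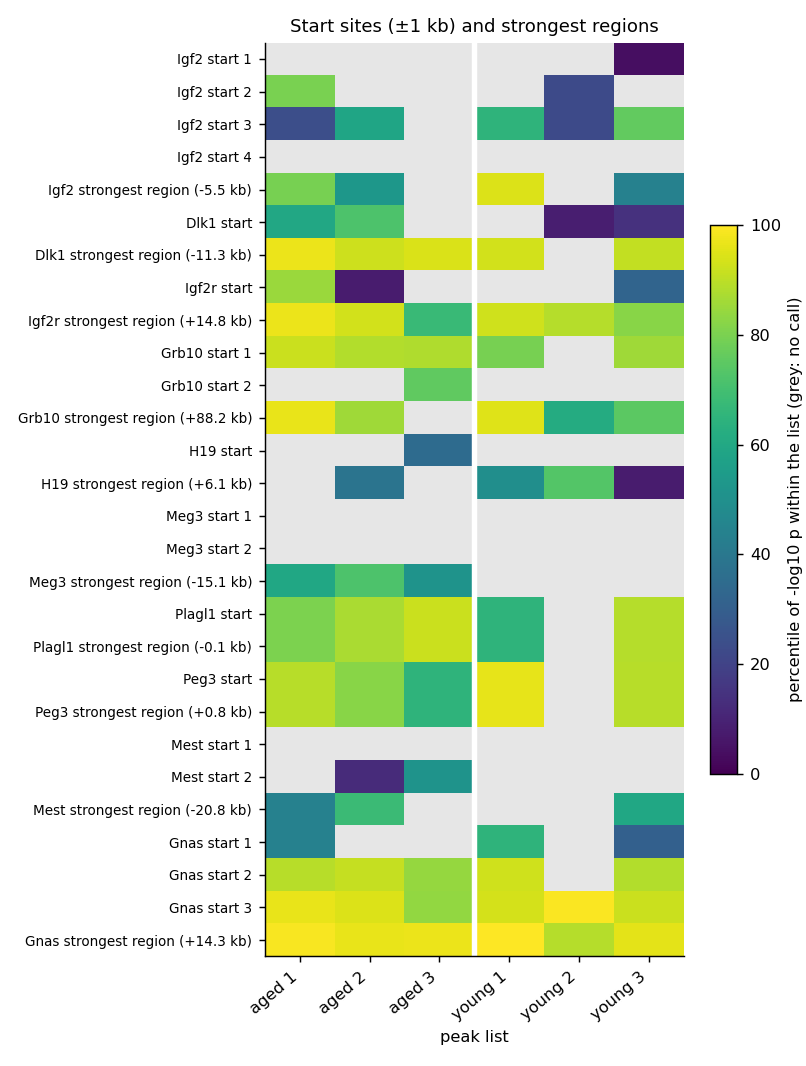
Percentile of the strongest peak within 1 kb of each annotated start, and of the strongest region of each locus with its distance from the nearest start, in the 3 aged lists (left) and the 3 young lists (right). Starts are numbered from 5′ to 3′, grey means no call, and percentiles of 0 and 100 are the weakest and strongest peak of a list. The last Gnas start and the strongest Gnas region are filled in every column, the Meg3 starts are grey throughout, and the strongest Meg3 region is filled in the aged columns alone.

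In the promoter table, 6 of the 17 member starts were called in 5 or 6 lists (37% of all 31172 starts were), 7 in at least 4 (44.1%) and 4 in none. No member start was called in every list of an age and in none of the other, where 0.135% of all starts were called in the aged lists alone in this way and 0.269% in the young lists alone. The median was 3 lists for both the members and all starts. CG content was not used to choose the members. Among all starts the mean was 1.25 lists with fewer than 5 CG dinucleotides in the 300 bases around the start, and 5.03 lists with at least 15. Of the 8 member starts with at least 15 CG, 5 were called in 5 or 6 lists, against 77.4% of all such starts, and 1 in all 6, against 56.8%. The Igf2r start, with 34 CG, was called in 3 lists, where starts with 30 to 34 averaged 5.26. The first Meg3 start, with 13 CG, was called in none, where starts with 10 to 14 averaged 3.71. Peg3, also with 13, was called in 5. H19 was not in the promoter table. Next, 3 short motifs were searched on both strands of the 300 bases: GGNGGCA, a part of the CTCF motif, was found at 6 of 17 member starts (22.1% of all starts), TGCCGC, the ZFP57 motif, at 5 of 17 (11.7%), and AAGATGG, a part of the YY1 motif, at 0 of 17 (6.38%). The first 2 can overlap each other, as they do at the upstream Grb10 start. Member starts had a median of 14 CG, against 7 for all starts, and TGCCGC itself holds a CG. The motif shares were not matched for CG content. Of the starts shown above, Igf2 held GGNGGCA, Plagl1 and Meg3 held TGCCGC, and Gnas and Igf2r held neither.

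**Figure D5:**
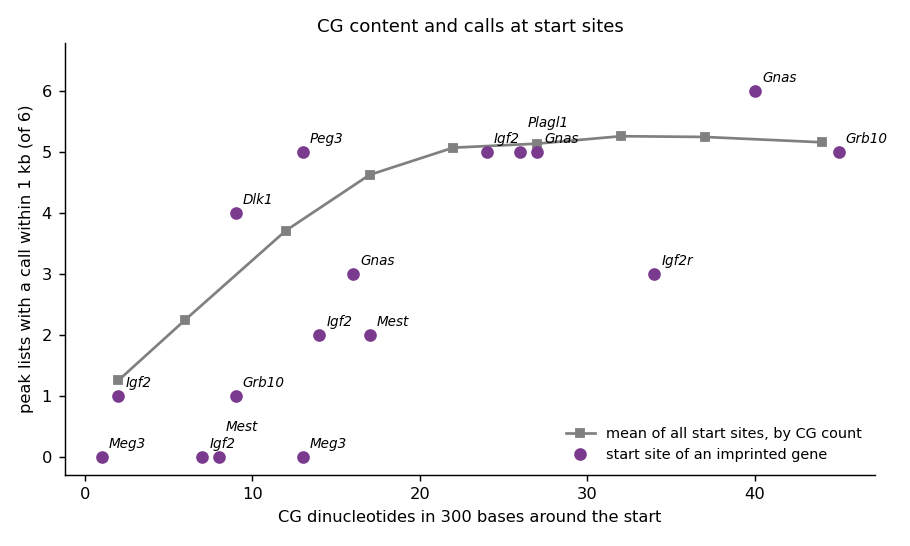
Number of peak lists with a call within 1 kb of a start (y axis, of 6) against the CG dinucleotides in the 300 bases around it (x axis). Purple points are the 17 member starts and grey squares the mean over all starts in bins of CG count. Igf2r, at 34 CG and 3 lists, and Meg3, at 13 CG and no list, lie below the grey line, and Peg3, at 13 CG and 5 lists, lies above it.

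By annotated gene ends, the aged lists called 7, 7 and 6 of the 20 and the young lists 6, 2 and 8 (exact permutation p 0.8), with means of 6.67 ± 0.577 for aged and 5.33 ± 3.06 for young (SD, 3 lists each). No end was called in all 6 lists, where 13.1% of the ends of all protein-coding and lncRNA genes were, 3 were called in 5 (20% of all ends were called in 5 or 6), and 7 in none (31.9% of all ends). Those called in 5 were the upstream ends of Grb10, Peg3 and Plagl1, and the list without a call was young replicate 2 each time. Without that list the difference of the means, aged minus young, went to -0.333 gene ends, against 1.33 with it.

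Other imprinted genes were set beside the 10, several of them neighbours of the members, so that 178 of the 423 regions lie in the windows of both sets. Of 53 that matched the annotation, 11 had an end called in all 6 lists, against none of the 10 members and 27.3% of all protein-coding and lncRNA genes. The 11 included Cd81, Tssc4, Nap1l4, Ube3a, Peg10, Sgce and Copg2. Of the 53, 18 were called in more aged than young lists, 12 in fewer, and 23 in as many of each. For all protein-coding and lncRNA genes the shares were 21.1% in more aged lists, 24.0% in fewer and 54.9% in as many, and for the 10 members the counts were 6, 3 and 1. At Grb10, Peg3 and Plagl1, which are among the 6, young replicate 2 was the only list without a call. That list called an end at 2 of the 10 members and 22 of the 53, and each other list at 6 or 7 and at 28 to 39. How far these counts rest on young replicate 2 was not tested. Among the 53, the largest differences were at Nespas (3 aged lists and 0 young lists), Slc38a4 (2 and 0), Asb4 (3 and 1) and Th (1 and 3). Nespas is the antisense non-coding RNA of the Gnas locus and the single gene of the 53 with an end called in every aged list and no young list. This held for 0.262% of all genes, and the reverse, seen at none of the 53, for 0.446%. The 3 Nespas calls were 3 different regions, 1 in each aged list, at percentiles of 1.59, 1.93 and 20, so no single region there was shared. Dio3 and Dcn were also called in aged lists alone, in 1 list each, and Calcr, Nap1l5, Commd1 and Ddc in 1 young list each.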

How the data were processed

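ATAC-seq peak lists of 3 aged and 3 young samples were analysed, 1 list per sample, with groups and replicate numbers taken from the titles. The tools named, per the submitters' processing notes, are MACS2, Picard, SAMtools and Bowtie2, with the build mm10, and their settings and versions are not given in the sources used here. Each deposited list gives, per peak, positions with a summit, -log10 q, -log10 p, fold enrichment (a ratio) and a score, all made by the authors. The smallest -log10 p was 2.00 in every deposited list, so weak peaks are included, and no read counts were used, so depth is unknown. Called in a list means that at least 1 of its peaks lies in the region; no call does not show closed chromatin.

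Rows with the same interval were counted once, chromosomes 1 to 19 and X were used, and peaks sharing at least 1 bp were merged over the 6 lists. The percentile of a region in a list is that of its best peak by -log10 p. The strongest region of a locus had the highest mean percentile over the 6 lists, with no call as 0. The regions named are, for each gene, the strongest one, those called in at least 4 lists and those called in all 3 lists of an age and in none of the other. A few more at starts and between neighbouring genes are given as well. Gene coordinates and starts came from RefSeq tables on GRCm38.p6, without exons, so exons, introns and UTRs were not told apart. Starts of a gene within 100 bp of each other were counted once, windows at starts and gene ends were 1 kb on each side, and the H19 start, not in the promoter table, was set to the gene end facing Igf2. Groups were compared by exact 2-sided permutation tests over lists (20 splits) with Benjamini-Hochberg adjustment, using Python 3.11.15, pandas 2.3.3, NumPy 2.4.6 and SciPy 1.17.1, and the merging was tested on simulated data. Members and gene lists were chosen with earlier results of these data known. Of 54 other imprinted genes, 1 symbol (Zfp264) did not match. Alternatives were other windows, overlaps, peak thresholds and a ranking by fold enrichment, each list left out in turn, and a replicate block.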

Additional observations from a re-analysis of the deposited data

How the results depend on the processing

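With 3 lists an age no comparison can pass 0.05. The exact permutation p ran between 0.2 and 1 for the 4 measures over all loci and between 0.1 and 1 for the regions at single loci, over all settings. Among the 100000 strongest peaks of each list the difference in regions per list turned to 2.67 (58 in aged, 55.3 in young). At a -log10 q of at least 1.3 the difference in share of peaks turned to -0.00315 percentage points (0.0530% in aged, 0.0562% in young). The count of regions called in all aged and no young lists was 0 with 10 kb windows, with the gene body alone and at that q limit, and the count called in all 6 lists was 4 with 50 kb windows. With 1 list left out, the difference in regions ran between -25.5 (without young replicate 3) and 0.333 (without young replicate 1). The difference in share ran between -0.000244 (without young replicate 2) and 0.0125, in median percentile between -2.69 (without aged replicate 1) and 10.4 (without aged replicate 3), and in gene ends between -0.333 (without young replicate 2) and 2.67. The median percentile also turned without aged replicate 2 (-1.12), young replicate 2 (-0.728) and young replicate 3 (-0.700). With a list left out, this median is taken over the regions called in all remaining lists, between 2 and 13. Its changes can thus come from other regions entering as well as from the list. Counts with a list left out, which ask for fewer calls, ran between 1 and 6 for regions of all aged and no young lists, 0 and 5 for all young and no aged, and 2 and 13 for all lists, with 13 without young replicate 2. For the other changes the cause was not tested. Deviations over 24576 start sites correlated at 0.0140, -0.220 and -0.232 in equally numbered pairs, and no list correlated best with its own number. Aged replicate 3 and young replicate 2, the lists that missed most shared regions, correlated at 0.210. Such differences between lists can hide a pairing, so these values cannot decide whether equal numbers mark one. With the replicate block the exact sign-flip permutation p was 0.5 for regions, 1 for share, 1 for percentile and 0.75 for gene ends, and at single loci 0.25 (Dlk1) to 1, with 0.25 the smallest possible, and it changed no call. Depth is unknown, so a missing call may be a matter of depth.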

Other observations

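Genes beside the 10 loci gave calls of their own. The start of Copg2, which neighbours Mest, was called in all 6 lists, at percentiles of 95.1, 98.0 and 94.1 in the aged lists, against 99.7, 61.5 and 98.0 in the young, while the first Mest start was called in none. The start of Zim1, a zinc-finger gene next to Peg3, ranked at 92.4 and 74.5 in aged replicates 1 and 2 and at 73.1 in young replicate 3. Usp29, which starts beside Peg3 in the opposite direction, was called by the same region as Peg3, so that the accessible stretch cannot be given to either gene.

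The loci of the 10 genes were somewhat denser in merged regions than those of other genes, with a median of 49.4 per 100 kb against 39.7 for all protein-coding and lncRNA genes (quartiles 31.5 and 47.2). The highest was H19, at 66.5, and the lowest Mest, at 26.2. Most of these regions were single calls. Of the member regions that each list called, the share called by no other list was 52.7%, 44.3% and 63.4% in the aged lists, against 66.1%, 78.9% and 37.0% in the young. Over all regions that share was 68.6%, 48.7% and 68.3% in the aged lists, against 71.3%, 79.6% and 44.7% in the young, higher than at the member loci in each list.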
